A study of Mus musculus with 9 samples.

Results

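Binding at 10 genes that glucocorticoids are known to induce in many tissues was examined for the glucocorticoid receptor (GR) and the mineralocorticoid receptor (MR). The genes were Tsc22d3, Zbtb16, Errfi1, Ddit4, Cdkn1a, Cdkn1c, Bcl6, Cebpd, Rgs2 and Pdk4. They were chosen by name, and a peak was assigned to a gene when its summit lay in the annotated gene body or within 20 kb of either end. Of 30508 peaks in 6 lists, 43 met this rule, and 5 of the 10 genes held all of them. The cells were N2A (Neuro2A) mouse neuroblastoma cells grown in charcoal-stripped serum, and every sample carried the same pair of transiently transfected fusion proteins, EGFP-GR and mCherry-MR. Each receptor was measured by ChIP-nexus in cells given vehicle, in cells given 100 nM corticosterone (CORT) for 20 min, and in cells given the same CORT exposure, then washed and kept for 40 min without steroid. ChIP-nexus is chromatin immunoprecipitation in which an exonuclease trims each DNA fragment up to the bound protein.

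The receptors were expressed from plasmids and precipitated through their tags. GR binding is therefore that of the tagged protein, in cells that also contain their own untagged GR and, according to the methods of the study, no MR. The methods describe rat receptors and the deposited description names mouse receptors. Input chromatin without precipitation was available for each treatment. The deposited lists join the replicates of a condition, so each condition has 1 list without a replicate error, and none of the comparisons below has a test. The paper reports far fewer CORT sites called repeatedly across single replicates than in the joined lists, above all for GR. Which of the peaks below were among them is not known here. The lists held 64 (GR) and 73 (MR) peaks after vehicle, 10602 and 14638 with CORT, and 246 and 4885 following washout. The strength of a peak is given as the deposited −log10 p against input and by its rank within its own list. That value grows with sequencing depth, which the peak lists do not give, so it is not an amount of binding and is not compared between lists as one.

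GR and MR are nuclear receptors that bind corticosterone, move to the nucleus and recognise the same palindromic DNA element, the glucocorticoid response element (GRE), built of a pair of half-sites around a 3-base spacer. MR has the higher affinity for corticosterone, so in brain cells that hold both receptors it is occupied at low hormone levels, while GR is recruited when levels rise. Many of the 10 genes restrain signalling, growth or metabolism. They encode transcriptional regulators (Tsc22d3, also called GILZ, Zbtb16, Bcl6 and Cebpd), inhibitors of growth signalling (Ddit4, Errfi1 and Rgs2), inhibitors of the cell cycle (Cdkn1a and Cdkn1c) and a regulator of fuel use (Pdk4).

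A GRE was searched as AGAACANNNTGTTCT where up to 3 of the 12 fixed positions could differ, lying wholly within 100 bp of a summit. The search covers both strands because the element is palindromic, and a match is a description of the letters only. The closest match to a CORT summit of each gene that had one is shown here, as the plus strand of GRCm38 (mm10) with the match in capitals and 7 bases to each side. Those at Tsc22d3, Ddit4 and Cdkn1a had 3 mismatches and that at Zbtb16 had 2.
Tsc22d3, chrX:140520320-140520348: gctgggcAGAACTCCCAGTGCTccctggg
Zbtb16, chr9:48786977-48787005: cctccctAGGACACAGTGGTCTcctcatc
Ddit4, chr10:59969906-59969934: gtccttgGGTACAGAGCGTTCTggcggct
Cdkn1a, chr17:29094692-29094720: tttggcgGGCACAGTATGTTCCcagggaa

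The sites that carried most of the results are shown as 101 bases around their highest summit, on the same strand, with the GRE match in capitals. They are the sites found in 3 or more lists and the site nearest to the annotated start of its gene. None overlapped an annotated exon.
Zbtb16 +49.3 kb, chr9:48786868-48786968: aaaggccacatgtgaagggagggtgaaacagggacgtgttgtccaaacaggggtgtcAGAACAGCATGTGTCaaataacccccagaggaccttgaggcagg
Zbtb16 +95.9 kb, chr9:48740223-48740323: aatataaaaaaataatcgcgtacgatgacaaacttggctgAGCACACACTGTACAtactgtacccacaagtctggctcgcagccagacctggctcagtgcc
Zbtb16 +112.4 kb, chr9:48723801-48723901: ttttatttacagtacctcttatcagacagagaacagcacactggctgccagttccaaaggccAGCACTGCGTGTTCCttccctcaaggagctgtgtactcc
Ddit4 -18.1 kb, chr10:59969869-59969969: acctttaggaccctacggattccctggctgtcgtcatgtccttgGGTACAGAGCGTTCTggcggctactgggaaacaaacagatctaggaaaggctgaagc
Ddit4 -0.6 kb, chr10:59952426-59952526: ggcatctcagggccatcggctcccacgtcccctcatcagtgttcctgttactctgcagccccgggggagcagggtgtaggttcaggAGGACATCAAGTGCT
Ddit4 +7.9 kb, chr10:59943866-59943966: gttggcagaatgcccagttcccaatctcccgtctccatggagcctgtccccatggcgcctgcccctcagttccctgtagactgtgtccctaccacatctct
Cdkn1a +3.7 kb, chr17:29094668-29094768: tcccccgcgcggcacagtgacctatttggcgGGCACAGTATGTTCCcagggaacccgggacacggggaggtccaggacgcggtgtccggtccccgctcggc

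After vehicle, none of the 10 genes had a peak of either receptor, where 0.109% of all 21938 protein-coding genes were bound by GR in a window of the same kind and 0.109% by MR. After CORT, 5 of the 10 had peaks of GR, and the same 5 of MR: Tsc22d3, Zbtb16, Errfi1, Ddit4 and Cdkn1a. The background was 26.3% of protein-coding genes for GR, 30.2% for MR and 21.7% for both receptors. The exact binomial interval on 5 of 10 ran from 18.7% to 81.3% and includes the shares for all genes. After washout, Ddit4 and Cdkn1a still had a GR peak against a background of 1.02% of genes, and Ddit4, Cdkn1a and Zbtb16 an MR peak against 14.3%. The intervals were 2.52% to 55.6% for 2 of 10 and 6.67% to 65.2% for 3 of 10, so the first, which rests on 2 peaks, lies above 1.02% and the second includes 14.3%. The first no longer did so with windows of 5 kb, where 1 of 10 genes (0.253% to 44.5%) had a GR washout peak against 0.670% of all genes, or with −log10 q of at least 5, where 0 of 10 had one against 0.456%. All intervals here cover counting error only.

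**Figure D1:**
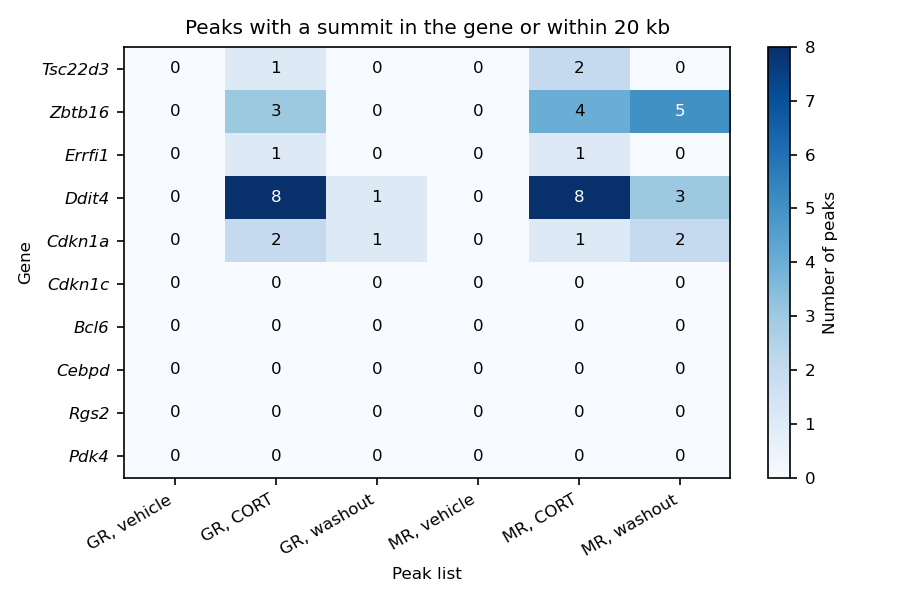
Number of peaks whose summit lay in each of the 10 genes (rows) or within 20 kb of it, in the 6 peak lists (columns), with the count printed in each cell and shaded from 0 to 8. Ddit4 had 8 peaks of each receptor after CORT, and the lower 5 genes had none in any list.

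The other 5 genes, Cdkn1c, Bcl6, Cebpd, Rgs2 and Pdk4, had no peak in any of the 6 lists, as had 64.4% of protein-coding genes. Their nearest CORT peaks stood well outside the windows. From the gene body to the nearest summit there were 57.7 kb (GR) and 57.6 kb (MR) at Rgs2, a regulator that shortens Gq signalling, and 63.1 kb for both receptors at Cdkn1c, the cell cycle inhibitor p57. At Cebpd, a leucine zipper transcription factor, the gap was 94.5 kb for both receptors. It was 448.6 kb (GR) and 389.7 kb (MR) at Pdk4, the kinase that switches off pyruvate dehydrogenase, and 548.2 kb and 486.1 kb at Bcl6, a zinc finger repressor. A missing peak says that no enrichment over input passed the threshold in these cells, and binding below it was not detectable.

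Ddit4 (chr10:59949669-59951834, minus strand) encodes REDD1, which restrains mTORC1 through the TSC complex. This 2.17 kb gene had 8 GR and 8 MR peaks after CORT, more than any other of the 10, and 1 GR and 3 MR peaks after washout. Among all protein-coding genes, 196 (0.893%) had at least 8 GR peaks after CORT and 305 (1.39%) at least 8 MR peaks. Of the 1700 genes with a window no longer than that of Ddit4, 8 had as many for GR and 8 for MR, Ddit4 included in each case. No Ddit4 peak lay inside the gene. Upstream of the start there were 4 GR and 5 MR peaks after CORT, and past the gene end 4 and 3.

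The site 18.1 kb upstream of the Ddit4 start was present in 4 lists. Its −log10 p was 30.1 (rank 73 of 10602) for GR after CORT and 33.2 (rank 109 of 14638) for MR after CORT. After washout it was 36.3 (rank 33 of 4885) for MR and 9.10 (rank 164 of 246) for GR. Within its own list the site thus stood in the top 0.868% or higher for GR after CORT and for MR in both treatments, and in the lower part of the short GR washout list. The GRE match shown for Ddit4 lay with its centre 3 bp from the GR CORT summit, 7 bp from the MR CORT summit, 1 bp from the MR washout summit and 9 bp from the GR washout summit. The site lay outside any annotated gene, and Ddit4 had the nearest protein-coding start.

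The peak closest to the annotated start of its gene was at the Ddit4 promoter, 0.6 kb upstream. It was a high-ranking GR peak after CORT, with a −log10 p of 20.3 (rank 362 of 10602), and a middling MR peak, with 9.82 (rank 5907 of 14638). Neither receptor had a peak there after washout. Its GRE match had 3 mismatches and was centred 43 bp from the GR summit and 42 bp from the MR summit. The ranks belong to 2 lists of different length, and whether binding itself differed between the receptors was not tested.

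Downstream of Ddit4 a cluster of sites lay 7 to 9 kb from the start. The site at +7.9 kb was in 3 lists, with −log10 p of 14.2 (rank 1168) for GR and 10.6 (rank 4705) for MR after CORT, and 11.8 (rank 1295) for MR after washout. It had no GRE match, its closest 15 bases having 4 mismatches in the stretch shown. The sites at +8.2 and +9.0 kb were in both CORT lists, as was the one at -18.7 kb, with −log10 p between 7.38 and 9.99. At +9.0 and -18.7 kb the GR and MR intervals overlapped only at their edges. The summits were at 8953 bp (GR) and 9022 bp (MR), and at -18680 bp (GR) and -18492 bp (MR). The remaining Ddit4 sites were each in 1 list. They were -1.3 kb (7.38) and +17.5 kb (6.15) for GR after CORT, -19.4 kb (5.20) for MR after CORT, and +7.2 kb (6.42) for MR after washout.

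**Figure D2:**
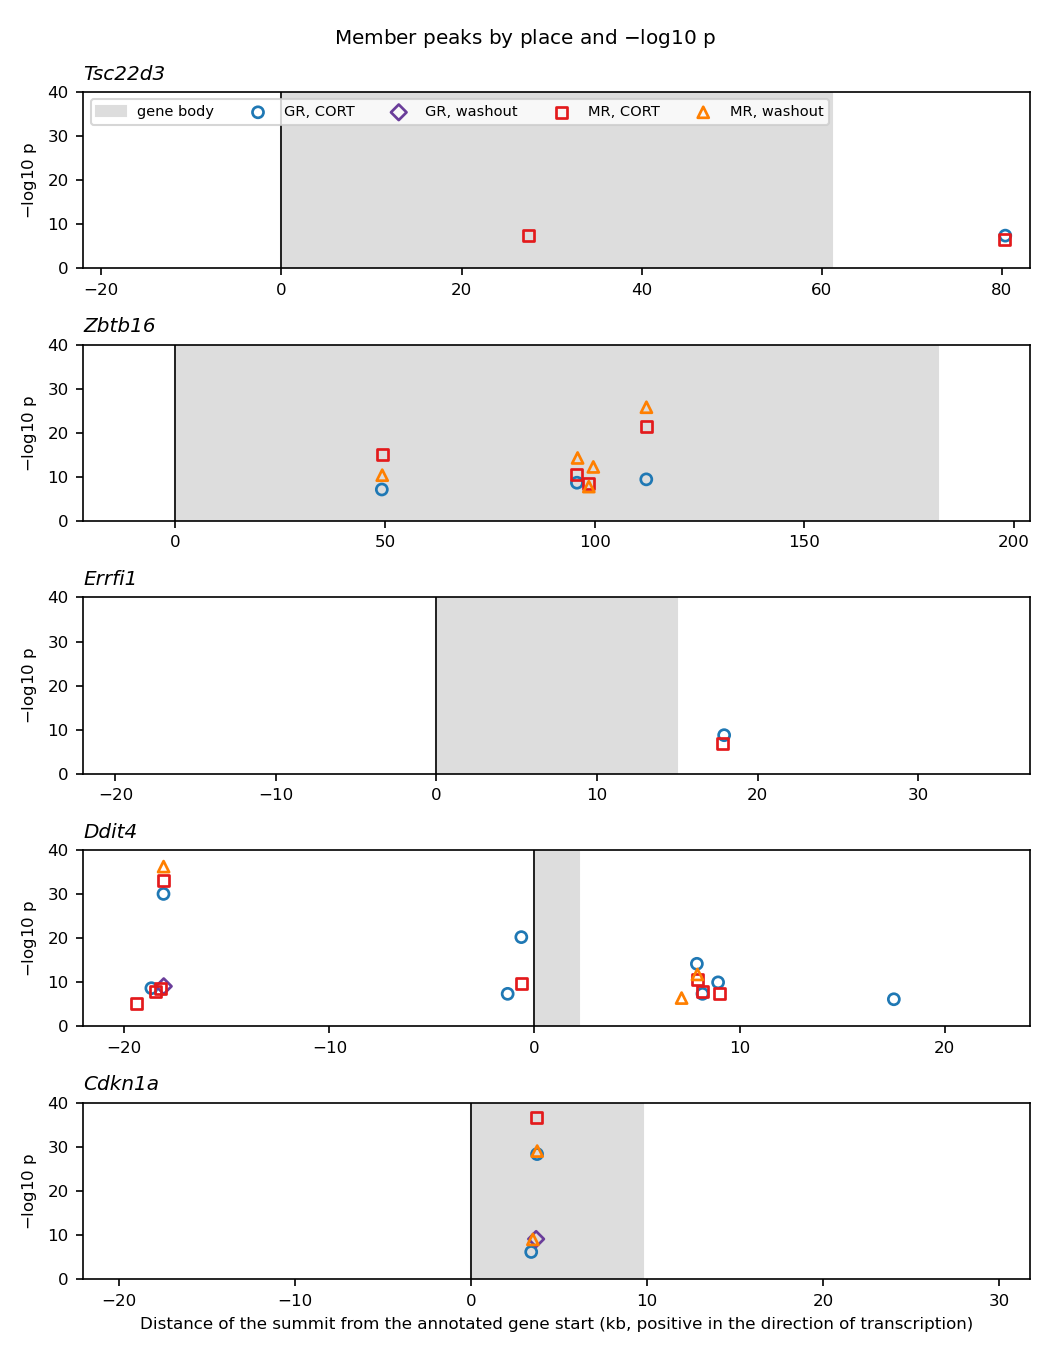
Position of each peak summit relative to the annotated start of its gene (horizontal axis, kb, positive in the direction of transcription; the scale differs between panels) against its −log10 p (vertical axis) in the 5 genes with peaks; grey marks the gene body and symbols the 4 lists with peaks. Ddit4 peaks lie outside the gene with the highest at -18.1 kb, the Cdkn1a peaks cluster in 1 intron, and Zbtb16 peaks lie 49.2 to 112.4 kb inside the gene.

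Cdkn1a (chr17:29090976-29100727, plus strand) encodes p21, which blocks cyclin-dependent kinases. All of its 6 peaks joined into a single intronic site 3.4 to 3.8 kb from the gene start, and this site was also in 4 lists. The highest peak in each list had a −log10 p of 28.4 (rank 95 of 10602) for GR after CORT, 36.7 (rank 59 of 14638) for MR after CORT, 29.1 (rank 86 of 4885) for MR after washout and 9.10 (rank 164 of 246) for GR after washout. It was the highest of the 16 MR peaks of the 10 genes after CORT. The GRE match shown for Cdkn1a, with 3 mismatches, was centred 12 to 38 bp from these 4 summits. The nearest annotated start of a Cdkn1a transcript was 903 to 963 bp upstream of the 4 summits, since the gene has alternative transcripts that start inside it. The weaker GR CORT peak of this site (6.15, rank 9320) was 624 bp from such a start.

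Zbtb16 (chr9:48654297-48836222, minus strand) encodes PLZF, a zinc finger repressor of transcription. It had 3 GR and 4 MR peaks after CORT and 5 MR peaks after washout, all intronic, and no GR peak after washout. At least 5 MR washout peaks were found at 145 protein-coding genes (0.661%), and at 77 of the 20815 genes with a window no longer than the 221.9 kb of Zbtb16. Zbtb16 and Cdkn1a had more MR peaks after washout than after CORT. At Cdkn1a this was 1 MR interval after CORT and 2 narrower ones within the same site after washout.

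The Zbtb16 sites ranked higher in the MR lists than in the GR list. At +112.4 kb the −log10 p was 21.5 (rank 634 of 14638) for MR after CORT, 25.8 (rank 134 of 4885) for MR after washout and 9.43 (rank 4581 of 10602) for GR after CORT. At +49.3 kb it was 15.1 (rank 1799), 10.4 (rank 1810) and 7.13 (rank 8599) in the same order. At +95.9 kb the values were 10.6 (rank 4705), 14.3 (rank 811) and 8.66 (rank 5190), and there the GR interval overlapped that of each MR list, while the MR intervals did not overlap each other. The site at +98.6 kb was in the MR lists only, with 8.60 after CORT and 7.79 after washout. The one at +99.7 kb was in the MR washout list only, with 12.3. Counted over the summits of all lists, every Zbtb16 site had 2 GRE matches, and at +49.3, +98.6 and +99.7 kb the better one had 2 mismatches. Single summits could have fewer, and at +95.9 kb the MR CORT summit had no match within 100 bp.

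Tsc22d3 (chrX:140539528-140600659, minus strand) encodes GILZ, a mediator of the anti-inflammatory action of glucocorticoids. Its peaks were weak and after CORT only. One intronic MR peak, 27.4 kb from the gene start and at -24691 bp (upstream) from the nearest annotated start of a Tsc22d3 transcript, had a −log10 p of 7.42 (rank 10559 of 14638). A site 80.4 kb from the start, 19.2 kb beyond the gene end, had 7.38 (rank 7262 of 10602) for GR and 6.54 (rank 11638 of 14638) for MR. The nearest protein-coding start to that site was that of Prps1, not Tsc22d3. The GRE match shown for Tsc22d3 was 50 bp from the GR summit and 2 bp from the MR summit.

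Errfi1 (chr4:150853919-150868892, plus strand) encodes MIG6, a feedback inhibitor of the EGF receptor. Its single site lay 2.9 kb past the gene end, 17.9 kb from the start, and was in both CORT lists. There the GR and MR intervals overlapped only at their edges, with summits 17917 bp (GR) and 17823 bp (MR) from the start. The −log10 p was 8.73 (rank 5164 of 10602) for GR and 6.77 (rank 11476 of 14638) for MR. No GRE match was within 100 bp of either summit. With only peaks of −log10 q of at least 5 counted, Tsc22d3 and Errfi1 had no peak, and 3 of the 10 genes had one after CORT for each receptor, against 15.6% (GR) and 20.99% (MR) of protein-coding genes at that threshold.

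**Figure D3:**
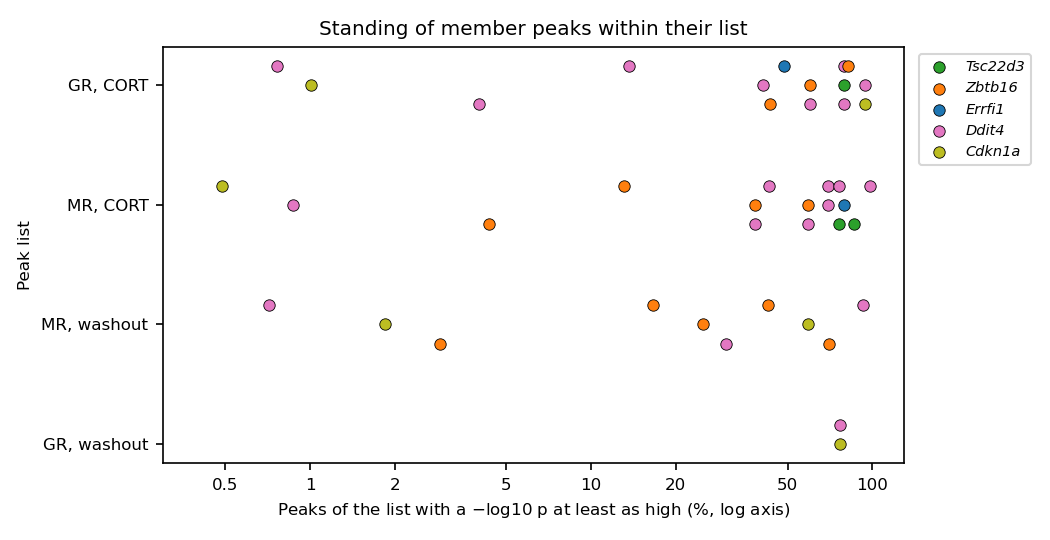
Standing of each member peak within its own list, as the percent of peaks in that list with a −log10 p at least as high (horizontal log axis, left is stronger), for the 4 lists with member peaks (rows) and coloured by gene; vertical offsets only separate the points. The leftmost points are Cdkn1a and Ddit4, while Tsc22d3 and Errfi1 lie at 48.7% or further right.

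Taken over the 10 genes, the peaks ranged from near the top to near the bottom of their lists. The median −log10 p was 8.66 for the 15 GR CORT peaks, where the list median was also 8.66. It was 8.60 against 9.17 for the 16 MR CORT peaks, and 12.02 against 9.57 for the 10 MR washout peaks. One of the 15 GR CORT peaks and 1 of the 16 MR CORT peaks lay within 1 kb of the annotated start of its gene, both at the Ddit4 promoter, leaving aside the inner transcript starts of Cdkn1a. Of all peaks in those lists, 7.23% and 5.27% lay within 1 kb of a protein-coding start. By place, 5 GR CORT peaks lay in a gene body, 4 upstream and 6 downstream, and for MR the counts were 6, 5 and 5. In the MR washout list 7 of 10 lay in a gene body, which are the peaks of Zbtb16, a gene of 181.9 kb, and Cdkn1a. These classes were not counted over all peaks of the lists, so no preference for a place can be read from them.

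Most GR and MR peaks at these genes overlapped each other by at least 1 bp after CORT. Of the 15 GR peaks, 12 (80%, exact interval 51.9% to 95.7%) overlapped an MR peak, where 61.0% of the whole GR list did. Of the 16 MR peaks, 13 (81.3%, 54.4% to 96.0%) overlapped a GR peak, where 47.6% of the whole MR list did. The first interval includes the share of the list and the second lies above it. The peaks of 1 gene share a locus, so they are not independent draws. With summits required to lie within 50 bp of each other, 7 of 15 GR peaks (46.7%) and 7 of 16 MR peaks (43.8%, 19.8% to 70.1%) were shared, against 45.5% and 33.02% of the lists, so the MR interval then included the share of the list. The GR peaks without an MR peak were Ddit4 -1.3 and +17.5 kb and the weaker Cdkn1a peak. The MR peaks without a GR peak were Tsc22d3 +27.4 kb, Zbtb16 +98.6 kb and Ddit4 -19.4 kb.

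After washout, 2 of the 15 GR CORT peaks (13.3%, 1.66% to 40.5%) were overlapped by a GR washout peak, against 2.13% of the whole list. They were those at Ddit4 -18.1 kb and Cdkn1a +3.7 kb, and both washout peaks had the same deposited −log10 p. In that list 76.8% of peaks had a value at least as high. For MR, 6 of 16 CORT peaks (37.5%, 15.2% to 64.6%) were overlapped by an MR washout peak, against 24.6%. These were at Zbtb16 +49.3, +98.6 and +112.4 kb, Ddit4 -18.1 and +7.9 kb, and Cdkn1a. In the other direction, both GR washout peaks overlapped a GR CORT peak (89.8% of the list did), and 7 of 10 MR washout peaks an MR CORT peak (75.7% of the list). The intervals on both CORT shares include the shares of the whole lists. With −log10 q of at least 5 in both lists, 5 of 7 MR CORT peaks (71.4%, 29.04% to 96.3%) were overlapped after washout against 24.1% of the list, and 0 of 6 GR CORT peaks against 2.47%.

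Joining overlapping peaks of all lists gave 19 sites at the 10 genes and 18980 in the genome. Of the 19, 2 were in 4 lists (10.5%, against 1.04% of all sites in 4 or more), and 6 were in 3 or more (31.6%, against 14.8%). Another 7 were in 2 lists and 6 in 1. The 2 sites in 4 lists, Ddit4 -18.1 kb and Cdkn1a +3.7 kb, were also those with the highest −log10 p of the 10 genes in both CORT lists and in the MR washout list. Their GR washout peaks each had a −log10 q of 3.84, so with −log10 q of at least 5 neither site stayed in 4 lists. Sites of 1 gene share a locus and are not independent draws, and these shares of sites were not tested.

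GRE matches were counted within 100 bp of each summit. Of the 15 GR CORT peaks 8 (53.3%, 26.6% to 78.7%) had a match, against 37.7% of all GR CORT peaks and 14.6% of windows 1000 bp from their summits. Of the 16 MR CORT peaks 7 (43.8%, 19.8% to 70.1%) had one, against 39.9% of all MR CORT peaks and 15.2% of the windows 1000 bp away. For the MR washout peaks it was 7 of 10, against 45.5% of that list. The members' intervals include the shares of the lists. With at most 2 mismatches 1 of 15 GR peaks had a match (6.67%, 0.169% to 31.95%), against 10.5% of the list. For MR it was 2 of 16 (12.5%, 1.55% to 38.35%), against 11.5%. Both intervals include the share of the list.

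The half-site TGTTCT, on either strand and which an exact GRE also contains, was found exactly at 4 of the 15 GR peaks (32.5% of the list) and 5 of the 16 MR peaks (34.2%). The AP-1 element TGANTCA was found exactly at 1 of 15 GR peaks, against 11.2% of the list, and at 0 of 16 MR peaks, against 10.1%. By site, 10 of the 19 had a GRE match: 5 of the 6 in 3 or more lists, 4 of the 7 in 2 lists and 1 of the 6 in 1 list. A site in more lists has more summits, so more sequence was searched there. These counts therefore cannot show whether shared sites were richer in GREs.

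Border pairs, which mark where the exonuclease stopped on either side of a bound protein, gave a second readout of the same libraries. In the windows of the 10 genes there were 5 for MR after CORT, 3 for MR after washout and none in the GR lists or after vehicle. The GR CORT list used here held 139 pairs in the genome and no p-values, against 3285 for MR. The paper reports many more GR pairs after CORT than this, and the same number for MR. The GR list used here is therefore not the paper's full set. Nothing can be read from the lack of GR pairs at these genes after CORT. At Cdkn1a an MR pair of 44 bp after CORT and one of 33 bp after washout enclosed all 15 bases of the GRE match shown. At Ddit4 -18.1 kb 3 overlapping MR pairs after CORT, of 7, 27 and 35 bp, covered 2, 10 and 12 of its 15 bases. At Zbtb16 +112.4 kb a 19 bp MR pair after washout covered 7 of 15. The remaining pairs touched no GRE match. They were a 20 bp MR pair at Cdkn1a after washout and a 49 bp MR pair at Ddit4 +7.9 kb after CORT. In input chromatin there were 2, 2 and 1 pairs in the windows for vehicle, CORT and washout, and none overlapped a peak of the 10 genes. Over the genome, input held 6351, 5767 and 5509 pairs in the same order, more than MR after CORT. A pair by itself is thus not specific to a receptor.

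Lists of related genes give a setting for these counts. Like the 10 genes, they were chosen with earlier results of these data known, so they are not independent comparisons. Of 12 other genes known to be induced by glucocorticoids, 10 were bound by GR and 10 by MR after CORT, 3 by GR and 10 by MR after washout, and none after vehicle. Among all protein-coding genes the shares were 26.3% (GR) and 30.2% (MR) after CORT, and 1.02% and 14.3% after washout. Fkbp5, the FK506-binding co-chaperone that dampens GR, had 13 GR and 16 MR peaks after CORT and 12 MR peaks after washout. Nfkbia, the inhibitor of NF-κB, had 4, 6 and 4 of these, the highest GR peak having a −log10 p of 55.7. Tat and Gadd45a had none. The metallothionein genes Mt1 and Mt2 lie side by side and share their peaks, so they are not independent entries.

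Of 21 paralogs and partners of the members, GR peaks were found at 7 and MR peaks at 6 after CORT. These counts are near the shares of all protein-coding genes, 26.3% for GR and 30.2% for MR. After washout 4 had an MR peak, against 14.3% of all protein-coding genes, and none a GR peak, against 1.02%. Cebpb, a paralog of Cebpd, had 2 peaks of each receptor after CORT and an MR washout peak with a −log10 p of 31.5, whereas Cebpd had none. Cebpa had 2 GR peaks and 1 MR peak after CORT, and Cebpg 1 GR peak after CORT and 1 MR peak after washout. Erbb3 had 1 GR and 2 MR peaks after CORT, while Egfr, Erbb2 and Erbb4 had none. Cdkn1b, the paralog of Cdkn1a and Cdkn1c, had 2 weak GR peaks, the higher with 6.15, and no MR peak. Rgs4 had 2 GR and 3 MR peaks after CORT where Rgs2 had none, and Pdk1 had 1 MR peak where Pdk4 had none. Other paralogs had no peak: Rgs16, Pdk2, Pdk3 and Bcl6b, like the members they relate to. Tsc22d1, Tsc22d2 and Tsc22d4 also had none, where Tsc22d3 had peaks. Sesn1, a stress-induced inhibitor of mTORC1 like Ddit4, had 4 GR and 2 MR peaks after CORT and 3 MR peaks after washout, while Ddit4l, Tsc1 and Tsc2 had none.

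**Figure D4:**
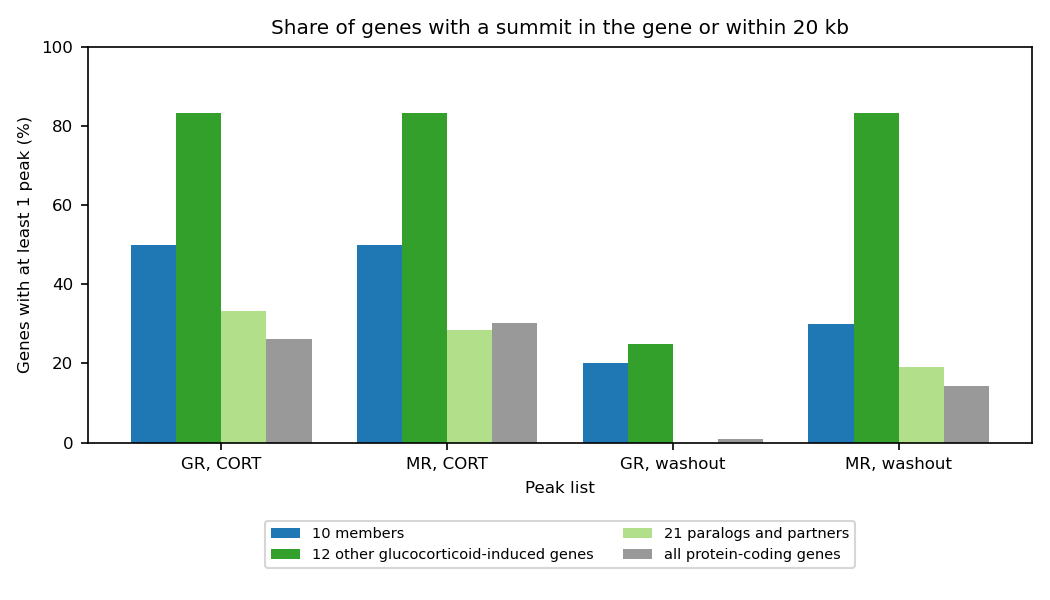
Percent of genes (vertical axis, from 0) with at least 1 peak summit in the gene or within 20 kb, for the 10 members, 12 other glucocorticoid-induced genes, 21 paralogs and partners and all 21938 protein-coding genes, in the 4 lists after CORT and washout. There is 1 list per condition, so the bars have no error; the members stand at 50% in both CORT lists, at 20% for GR and at 30% for MR after washout.

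The genes whose counts over the 6 lists were most like those of Ddit4 were Fbxo31 and Sh3pxd2a, out of 21928 compared, each differing by 1 peak summed over the lists. Another 12 genes tied with a difference of 2, and of these Acsf3 had the window closest in length to that of Ddit4. Fbxo31 had 9 GR and 8 MR peaks after CORT in a window of 69.4 kb, Acsf3 had 8 and 8 in 82.4 kb and Sh3pxd2a 8 and 8 in 244.2 kb, compared with 42.2 kb for Ddit4.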

How the data were processed

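The authors trimmed the reads, aligned them to GRCm38 (mm10) with Bowtie2, removed duplicates with the same random barcode, filtered on mapping quality, joined the replicates and called peaks over input with MACS2 2.1.1.20160309 (false discovery rate 0.05). Peaks carry a deposited score that is 10 times −log10 q without its decimals. Of the deposited −log10 values, −log10 p ranks peaks here within a list, and the column headed fold enrichment holds −log10 q. The column headed as q holds the summit offset. Border pairs have a MACE p-value in the deposited lists, except GR after CORT. Whether MACE used pooled replicates is not given in the sources used here. Read depth is not in these files.

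Gene bodies and starts are those of GENCODE M21, and distances are from the 5′ end of the gene record. Sequences were read from the RefSeq copy of GRCm38, whose chromosome lengths hold all peaks. An overlap was 1 bp or more. Shares have exact (Clopper-Pearson) 95% intervals for counting error only. Python 3.11.15, pandas 2.3.3, scipy 1.17.1 and pysam 0.24.0 were used, and the counting, overlap and motif steps were tested on simulated data with planted answers. No test between conditions was possible with 1 list each.

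The 10 genes, the related genes and the rules were chosen with earlier results of these data known. The text names all 10 genes, their highest peak in each list, every site in more than 1 list, and the 3 genes with counts most like the member with most CORT peaks, ties going to the closest window length. Sites in 1 list, and the set of 101-base sequences, were added after their values were seen. The alternatives were windows of 5 and 50 kb, a stricter q, other rules for windows and overlap, and other GRE limits.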

Additional observations from a re-analysis of the deposited data

How the results depend on the processing

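Of 98 alternative values for 24 results, 61 stayed within 1.5 times a count or within the interval of a share, and 37 moved. With windows of 5 kb there were 8 GR and 8 MR member peaks after CORT, and 1 GR peak in 1 gene after washout. With 50 kb the CORT lists had 25 (GR) and 31 (MR) peaks, the washout lists 4 and 21, and there was 1 MR peak in 1 gene, Ddit4, after vehicle. With −log10 q of at least 5 there were 6 GR and 7 MR peaks after CORT, each in 3 genes, and 0 GR peaks in 0 genes after washout. Any overlap with the window, or coding transcripts only, changed no member count.

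The share of genes with a peak, over all annotated genes, was 0.0686% (GR vehicle), 18.0% (GR CORT), 0.646% (GR washout), 21.04% (MR CORT) and 9.78% (MR washout). With 5 kb it was 17.7% (GR CORT), 0.670% (GR washout), 20.5% (MR CORT) and 9.41% (MR washout), and with the stricter q 15.6%, 0.456%, 20.99% and 8.55%.

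With the stricter q in both lists, 71.4% (5 of 7) of MR CORT peaks and 0% (0 of 6) of GR CORT peaks of the 10 genes were overlapped after washout. With summits within 50 bp, 46.7% of GR CORT and 43.8% of MR CORT peaks were shared between receptors. GRE shares were 6.67% (GR) and 12.5% (MR) with at most 2 mismatches, and 86.7% and 87.5% with at most 4, where the whole lists had 10.5%, 11.5%, 79.0% and 82.1%. Each alternative counts a wider, narrower or stricter set, and why a value moved was not tested. No paired analysis was possible because the replicates of a condition are joined in 1 list, and for the same reason no replicate could be left out. Depth decides which weak peaks pass, and it is not given by these files.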

Other observations

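A peak just beyond the 20 kb limit, 22.4 kb upstream of the Ddit4 start, was in 5 of the 6 lists. It ranked above the Ddit4 site at -18.1 kb in the MR washout list and below it in both CORT lists and the GR washout list. Its −log10 p was 45.4 (rank 10 of 4885) for MR after washout, 27.9 (rank 254 of 14638) for MR after CORT and 23.4 (rank 215 of 10602) for GR after CORT. It was 7.77 (rank 215 of 246) for GR after washout and 12.7 (rank 54 of 73) for MR after vehicle. No GR vehicle peak overlapped it. The nearest protein-coding start was that of Ddit4. Just inside the limit the farthest upstream Ddit4 peak, at -19.4 kb, had 5.20, in the MR CORT list only.

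A site 82.1 kb from the Tsc22d3 start, beyond its end and outside its window, was in 3 lists. The −log10 p was 20.9 (rank 263 of 4885) for MR after washout, 10.6 (rank 4705 of 14638) for MR after CORT and 7.38 (rank 7262 of 10602) for GR after CORT. The nearest protein-coding start was that of Prps1. Outside the Cdkn1a window, an MR CORT peak at 30.4 kb from its start lay in the body of Rab44, with 9.17.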
